A study of Mus musculus with 6 samples.

Results

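A set of 10 genes for transcription factors that build and maintain the blood vessel lining was followed in isolated mouse lung endothelial cells that lack HIF-2α, set against control cells. The 10 genes were the ETS factors Ets1, Erg and Fli1, the SOX factors of subgroup F (SOXF) Sox7, Sox17 and Sox18, the basic helix-loop-helix factors Tal1 and Lyl1, and the Krüppel-like factors Klf2 and Klf4. They were taken by name, out of 18193 genes that had a probe set (a group of array probes for 1 transcript) annotated to that gene alone. They had 18 such probe sets of the 45101 on the array, and for each gene the probe set with the highest mean over the 6 arrays was used, with the others as a check. Of the 10 genes, 9 passed the filter on dim probe sets; Sox17 did not.

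Expression was measured on 3 knockout and 3 control arrays, all from cells kept at 0.5% oxygen for 16 h, and without arrays at normal oxygen. Knockout cells came from lungs of mice with VE-Cadherin-Cre, a recombinase driven by an endothelial promoter, and 2 floxed alleles of HIF-2a, the gene for HIF-2α (Epas1). The labels describe the controls in different ways: as floxed/floxed, as VE-Cadherin-Cre floxed/WT, and as wild type. The cells had been selected repeatedly by endothelial markers, and the labels do not tell whether replicate arrays stand for separate animals or cultures, so each p-value covers only the spread among these arrays. In such bulk samples, fewer cells of a type and less RNA per cell cannot be told apart.

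ETS factors bind a GGAA core found in nearly all endothelial enhancers, and Erg and Fli1 are the family members most closely tied to endothelial identity. The SOXF factors act in arterial and lymphatic specification, and Tal1 and Lyl1 pair with E proteins and LIM-domain partners in blood and endothelial development. Klf2 and Klf4 are induced by laminar blood flow through the MEKK3, MEK5, ERK5 and MEF2 cascade, raise anticoagulant and vasodilator genes and hold down inflammatory ones. HIF-2α is stabilised at low oxygen and, with ARNT, binds DNA at an ACGTG or GCGTG core.

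The labelled cell type was checked against its markers. A gene below a signal of 16 on every array was taken to be at the array's floor, and 0 of the 13 endothelial markers on the array were; the dimmest, Cldn5, read 15.2 on knockout 3. Egfl7 averaged 24283 in the knockout and 25835 in the control, and Emcn 23991 in the knockout and 25263 in the control. Their summed signal was 149045 to 166121 on the knockout arrays and 174844 to 188515 on the control arrays. All 10 fibroblast markers, Pdgfra and Pdgfrb included, and all 13 epithelial and mesothelial markers, Nkx2-1 and Sftpc included, lay below 16 on every array. So did 10 of 13 leukocyte markers, Ptprc, Itgam and Lyz2 among them, 4 of 5 red cell and platelet markers, and 6 of 7 smooth muscle and pericyte markers, Myh11 included. Tagln, the smooth muscle marker above it, read 207, 167 and 70.2 in the knockout and 44.0, 74.9 and 32.1 in the control, with overlap and a log2 difference of 1.25 ± 0.46 (limma, adjusted p = 0.144). The part of such cells in the values that follow was not tested. The main Epas1 probe set read 8920.4, 9397 and 9859 on knockout arrays 1 to 3, against 9611, 9590.3 and 9444 on control arrays 1 to 3; where its probes lie relative to the deleted exons is not known here, so it does not check the labels. Controls 1 and 3 stood closest of all array pairs (SD of their log2 difference over genes 0.137), against 0.367 and 0.396 between control 2 and these, and 0.307 to 0.678 among the knockout arrays.

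In the fit of all 12277 genes (limma, log2(signal + 16), Benjamini-Hochberg adjustment over all genes, threshold 0.05), 3 of the 9 measured factors were called: Ets1, Erg and Klf4, all lower in the knockout. Of all genes tested, 13.7% were called, 8.65% as higher and 5.07% as lower. The 3 factors therefore made up 33.3% of those measured, and 0 were called higher. The count was 0 without control 1 or without control 3. The factors were chosen with earlier results of these data known. Nothing is therefore read from their share, or from their median below, against all genes. At an unadjusted p under 0.05 (limma) there were 6, Lyl1 the highest of them and Sox7 and Klf2 lower. Such p-values were common: Cldn5, with an unadjusted limma p of 0.0426, ranked only 3732 by p among the 12277 genes. The groups did not overlap for 6 of the 9, where 36.2% of all genes showed no overlap. The median log2 difference, knockout minus control, was -0.38 over the 9 factors and 0.0071 over all genes.

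**Figure D1:**
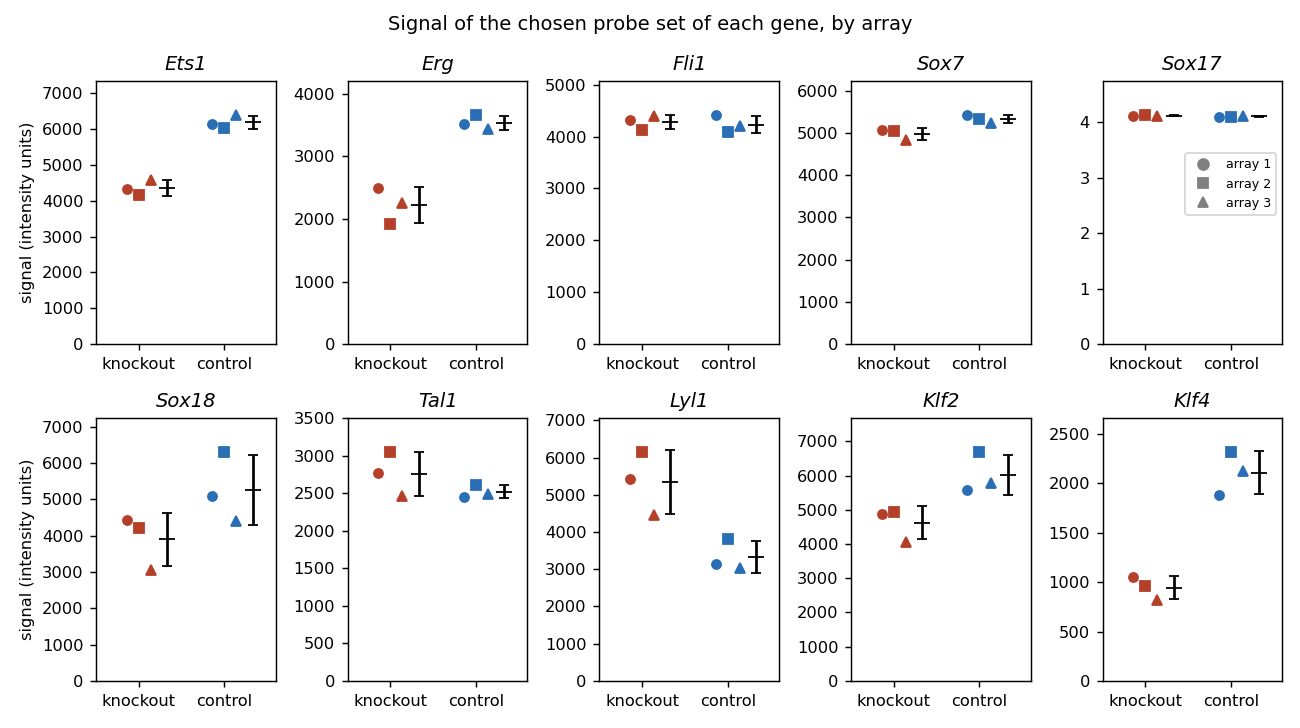
Signal of the chosen probe set of each of the 10 genes on every array, knockout left and control right; marker shapes give the array number, and horizontal and vertical bars the mean and SD of 3 arrays. Each panel has its own axis from 0 in intensity units. The knockout arrays lie below all control arrays for Ets1, Erg, Sox7, Klf2 and Klf4 and above them for Lyl1; Sox17 stays near 4 on all 6 arrays.

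Both Ets1 and Erg were lower in the knockout cells, and Fli1 did not pass the test. Ets1, an activator of angiogenic and protease genes, had signals of 4332, 4158 and 4589 on the knockout arrays and 6135, 6036 and 6381 on the control arrays. All knockout arrays lay below all control arrays, with a wide gap between the groups and little spread within them. The means were 4359.7 ± 217 in the knockout and 6184 ± 178 in the control (SD, n = 3 each). This is 0.705 times the control level on the log2(signal + 16) scale, or a log2 difference of -0.50 with an SE of 0.05, as are the errors of all log2 differences (limma, adjusted p = 0.00911). Erg, which keeps the endothelial junction gene Cdh5 active and holds back inflammatory genes, read 2501, 1919 and 2258 in the knockout and 3512, 3654 and 3431 in the control. Again no knockout array reached the lowest control array. The log2 difference of Erg was -0.67 ± 0.11, or 0.628 times the control (limma, adjusted p = 0.0261).

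Fli1, the closest relative of Erg, read 4319.8, 4126 and 4388 in the knockout and 4408, 4079 and 4195 in the control. The groups overlapped, with a log2 difference of 0.02 ± 0.04 and a 95% interval of -0.09 to 0.13 (limma, adjusted p = 0.848). Fli1 and Ets1 are neighbours in the order of protein-coding genes on chromosome 9 in the RefSeq gene table of GRCm38.p6. Set against each other within each array, Ets1 minus Fli1 was 0.0041, 0.011 and 0.06 on the log2 scale in the knockout and 0.48, 0.56 and 0.60 in the control. The knockout values sat in a narrow band below every control value. The group difference of -0.52 had an exact permutation p of 0.1 (two-sided), the smallest that 3 against 3 arrays allow, and 0.16 after adjustment over 8 family pairs. Erg minus Fli1 differed by -0.69 with the same exact p of 0.1, also without overlap. Ets1 minus Erg differed by 0.17 with overlapping groups (exact permutation p = 0.3). Since no pair could go below 0.1, this test cannot decide whether the changes of Ets1 and Erg differed.

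The other probe sets gave a mixed check. Over the 27022 probe sets past the filter, 7.65% were called, and of the 16 that belong to these factors 5 were: 2 of Ets1, 1 of Erg and 2 of Klf4. The brighter of the other 3 Ets1 probe sets read 846, 705 and 777 in the knockout and 1128, 1559 and 1430.5 in the control, a log2 difference of -0.80 ± 0.15 (limma, adjusted p = 0.0474 over probe sets). The 2 dimmer Ets1 probe sets gave -0.09 ± 0.29 and -0.36 ± 0.47 and were not called; on both, control 2 stood apart, at 838 and 612, against 419 and 489 and against 194 and 262 on controls 1 and 3. The dimmer Erg probe set read 1841, 935 and 978 in the knockout and 3741, 2383 and 2646 in the control, without overlap. Its log2 difference of -1.26 ± 0.34 did not pass (limma, adjusted p = 0.105). The dimmer Fli1 probe set gave 0.40 ± 0.27 with overlapping groups (limma, adjusted p = 0.417).

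**Figure D2:**
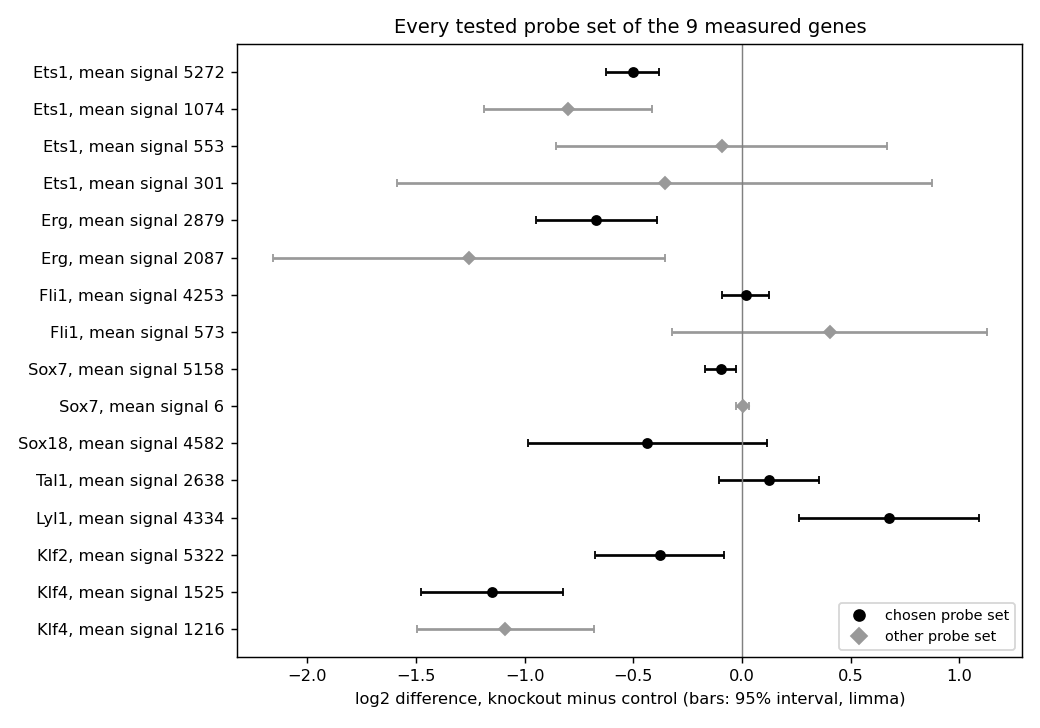
Log2 difference, knockout minus control, of each tested probe set of the 9 measured genes, labelled with its mean signal over the 6 arrays; bars are 95% intervals from limma, black circles the chosen probe sets and grey diamonds the others. Both Klf4 probe sets and the brighter 2 of Ets1 lie wholly below 0, and the dim probe sets of Ets1 and Fli1 have intervals that span 0.

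The calls of Ets1 and Erg depended on single arrays, and that of Erg was lost more easily. The Ets1 difference stayed between -0.54 and -0.47, but its call ended without knockout 1 (limma, adjusted p = 0.0523), control 1 (0.0574) or control 3 (0.0532). The Erg difference stayed between -0.76 and -0.57, and its call ended without knockout 1 (0.0512), control 1 (0.111), control 2 (0.0714) or control 3 (0.105). With the probe sets of a gene averaged, Ets1 was -0.44 (adjusted p = 0.232) and Erg -0.96 (0.0514), and neither passed.

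Among 15 other ETS factors tested, 1 was called; Ehf and Spic among them were below 16 on every array. Etv4, a factor of the PEA3 group, was higher: 626, 846 and 488 in the knockout and 221, 289 and 216 in the control, a log2 difference of 1.35 ± 0.24 (limma, adjusted p = 0.0321). Its call remained in 1 of the 6 fits with an array left out, the one without knockout 3. With the probe sets of a gene averaged, Etv4 was 0.68 (limma, adjusted p = 0.0347). Ets2 (-0.13), Etv6 (0.34) and Elk3 (-0.21), the next by p, did not overlap between groups but were not called. Etv2, Elf3, Elf5, Spi1, Spib and Spdef lay at the floor on every array and were not tested.

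Of the SOXF factors, 2 of 3 could be measured, and neither passed the adjusted threshold. Sox7 read 5078, 5049 and 4823 in the knockout and 5415, 5341 and 5241 in the control. All knockout arrays lay below all control arrays, but by little: the log2 difference was -0.10 ± 0.03 (limma, adjusted p = 0.0923). Sox18, which switches on the lymphatic regulator Prox1 in mice, read 4433, 4201 and 3062 in the knockout and 5094, 6301 and 4401 in the control. Knockout 1 exceeded control 3, and the log2 difference of -0.43 ± 0.21 did not pass (limma, adjusted p = 0.229, 95% interval -0.98 to 0.11). It was -0.89 with the spike-in covariate, which is partly tied to the group, and also not called. Sox17, an arterial factor, had both its probe sets at the floor, at 3.99 to 4.12 on all 6 arrays, so no fold is given. Whether these probe sets can detect Sox17 was not tested. A further Sox7 probe set was at the floor too, at 5.69 to 5.90. Within arrays, Sox7 minus Sox18 differed by 0.34 between groups with overlap (exact permutation p = 0.2).

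Of 8 other SOX factors that passed the filter, 6 were still below 16 on every array, and of the other 2, Sox4 and Sox13, Sox4 was called. It read 14081, 15103 and 16058 in the knockout and 19138, 18500.1 and 19264 in the control, a log2 difference of -0.33 ± 0.05 (limma, adjusted p = 0.029), and kept its call without knockout 3 but in 0 of the other 5 fits with an array left out. With genes kept by a mean signal of at least 16, its adjusted p was 0.0502. Sox13 gave 0.46 ± 0.18 with overlapping groups, and the genes of 8 further SOX factors, Sox2 and Sox10 among them, did not pass the filter. Of 8 genes known as SOXF targets, the arterial genes Dll4 and Efnb2 were called lower and the adhesion molecule Vcam1 higher. Prox1 among the 8 was below 16 on every array. Dll4, the Notch ligand of tip and arterial cells, read 413, 452 and 290.1 in the knockout and 829.9, 1052 and 778 in the control. That is a log2 difference of -1.18 ± 0.21, with no overlap (limma, adjusted p = 0.0328). Efnb2, an arterial ephrin ligand, was lower by a log2 difference of -0.55 ± 0.07 (adjusted p = 0.0175). Robo4 (0.28 ± 0.07, limma, adjusted p = 0.0612), an endothelial receptor of the Roundabout family, was not called. Dll4 kept its call without knockout 3 only, and Efnb2 without knockout 2 or knockout 3. With the probe sets of a gene averaged, Efnb2 was -0.62 and not called (limma, adjusted p = 0.0617).

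Lyl1 and Tal1, close relatives that share partners, were compared with each other as well as between groups. Lyl1 read 5427, 6148 and 4459 in the knockout and 3130.1, 3810.4 and 3032 in the control. Every knockout array was above every control array, with means of 5345 ± 848 in the knockout and 3324 ± 424 in the control (SD, n = 3 each). The log2 difference was 0.68 ± 0.16, or 1.599 times the control, and missed the threshold (limma, adjusted p = 0.0566). It was called in 7 of 20 alternatives, among them without knockout 3, the lowest knockout array (0.80, adjusted p = 0.0338). Another was the fit with the replicate number as a block (0.0215), though it is not known whether the numbers pair the arrays. With a spike-in covariate it was 0.28 (0.0762), and with controls 1 and 3 averaged 0.63 (0.187). Tal1 read 2767, 3047 and 2461 in the knockout and 2449, 2613 and 2492 in the control, with overlap and a log2 difference of 0.13 ± 0.09 (limma, adjusted p = 0.385). Within each array, Tal1 minus Lyl1 was -0.97, -1.01 and -0.85 in the knockout and -0.35, -0.54 and -0.28 in the control. The groups did not overlap, and the difference of -0.55 had an exact permutation p of 0.1, 0.16 after adjustment.

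Tal1 and Lyl1 are also expressed in blood and platelet precursors. Of the red cell and platelet markers, Pf4, a platelet chemokine, was the single gene above the floor, at 5159, 6312 and 4630.0 in the knockout and 3638, 3907 and 3529 in the control. Knockout arrays were above control arrays, as for Lyl1, with a log2 difference of 0.53 ± 0.13 (limma, adjusted p = 0.0622). Hba-a1, Alas2, Itga2b and Ppbp were below 16 on every array. The sum of the leukocyte markers was 1374 to 2405 in the knockout and 4085 to 4827 in the control, where most of it was Cd68. The brightest of these markers over the 6 arrays, Cd68 encodes a lysosomal protein and averaged 971 in the knockout and 3925 in the control. Coro1a ran the other way and averaged 1004 in the knockout and 416 in the control. Of the 5 leukocyte markers tested, Csf1r and Vav1 were below 16 on every array. Cd68 was called lower and was the only 1 of the 5 with a negative difference. Their median log2 difference was 0.0091, with the floor genes counted in it. The part of these cells in the Lyl1 difference was not tested.

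Of 14 partner genes of Tal1 and Lyl1 tested, 1 was called, and Runx1t1 and Ssbp2 among them were below 16 on every array. Ldb2, a LIM-domain-binding adaptor, read 1276.5, 1282 and 1425 in the knockout and 2021, 2848 and 2217 in the control, a log2 difference of -0.81 ± 0.14 without overlap (limma, adjusted p = 0.0328). Its call ended without knockout 1, knockout 2, control 1 or control 3. Cbfa2t3 (-0.57), Lmo1 (0.51) and Tcf4 (-0.998), the next by p, overlapped between groups, and Gata1, Gfi1b and Tal2 were at the floor. Of 16 other endothelial transcription factors, 1 was called, and 3 (Hey2, Prox1 and Meox2) were below 16 on every array. The called gene Nr2f2, the factor of venous identity, averaged 15066.5 ± 789 in the knockout and 20319 ± 576 in the control (SD, n = 3 each). Its log2 difference was -0.43 ± 0.05 (limma, adjusted p = 0.0129). The call of Nr2f2 ended without control 1 or control 3. With the probe sets of a gene averaged, Nr2f2 was -0.79 (limma, adjusted p = 0.00903). Foxo1 (0.20 ± 0.04) and Foxc1 (0.23 ± 0.06) did not overlap between groups and were not called.

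Klf4 had the largest difference among the chosen probe sets, and Klf2 a smaller one; the dimmer Erg probe set, at -1.26, differed by more. The RefSeq table of GRCm38.p6 held promoters for 5 of the 10 genes (Klf4, Klf2, Lyl1, Tal1 and Erg); the 250 bases before the start of Klf4, Klf2 and Lyl1, chosen because Klf4 and Lyl1 differed most in each direction among the chosen probe sets and Klf2 is the relative of Klf4, are shown 5′ to 3′ on the strand of the gene, with motif matches in capitals. Both strands were searched for the HIF cores ACGTG and GCGTG, the ETS core CGGAA, and the MEF2 motif. The Klf4 stretch lies at chr4:55532476-55532725 on the minus strand, the Klf2 stretch at chr8:72318812-72319061 and the Lyl1 stretch at chr8:84701207-84701456, both on the plus strand. Capitals mark the HIF core in Klf4, the MEF2 motif in Klf2 and the ETS core in Lyl1.
Klf4: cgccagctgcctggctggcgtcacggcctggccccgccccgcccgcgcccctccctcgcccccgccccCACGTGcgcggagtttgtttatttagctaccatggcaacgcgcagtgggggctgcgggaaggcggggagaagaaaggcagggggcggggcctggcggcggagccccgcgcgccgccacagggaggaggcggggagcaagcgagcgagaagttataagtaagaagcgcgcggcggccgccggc
Klf2: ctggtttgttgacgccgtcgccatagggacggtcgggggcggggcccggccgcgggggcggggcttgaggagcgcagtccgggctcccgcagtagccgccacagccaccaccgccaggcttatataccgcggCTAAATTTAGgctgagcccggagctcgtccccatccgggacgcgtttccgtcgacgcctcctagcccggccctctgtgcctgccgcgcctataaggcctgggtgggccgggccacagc
Lyl1: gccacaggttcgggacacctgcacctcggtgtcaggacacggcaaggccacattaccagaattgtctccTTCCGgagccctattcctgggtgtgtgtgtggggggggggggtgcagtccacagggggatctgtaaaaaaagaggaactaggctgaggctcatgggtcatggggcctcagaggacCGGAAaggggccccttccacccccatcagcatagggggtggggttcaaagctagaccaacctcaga
The Klf4 stretch, with 74% G and C, held ACGTG on both strands in the palindrome CACGTG, which begins 182 bases before the start. ACGTG occurred in 16.6% and GCGTG in 28.2% of the 32851 promoters of the table over the same length. The Klf2 stretch held neither HIF core and had 1 MEF2 motif 118 bases before the start, a motif found in 0.508% of promoters. It also held 1 CGGAA, which is not in capitals. The Lyl1 stretch held CGGAA 2 times, 181 and 66 bases before the start, against 25.2% of promoters with at least 1. It held neither HIF core, and nor did the Tal1 promoters, which are not shown. The Erg promoters, also not shown, held no ACGTG, and 1 of them held GCGTG, 228 bases before its start. These matches are descriptions of the sequence and not evidence of binding.

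Klf4 read 1047, 959.8 and 819 in the knockout and 1882, 2316 and 2125 in the control. Every knockout array was far below every control array, with means of 942 ± 115 in the knockout and 2108 ± 218 in the control (SD, n = 3 each). The log2 difference was -1.15 ± 0.12, or 0.450 times the control level (limma, adjusted p = 0.0127). A further Klf4 probe set read 816, 864 and 640.0 in the knockout and 1475, 1888 and 1612 in the control, with a log2 difference of -1.09 ± 0.15 (limma, adjusted p = 0.0291 over probe sets). Both probe sets thus gave the same direction and nearly the same size. The Klf4 call ended without control 1 (adjusted p = 0.0519) or control 3 (0.0691), while the difference stayed between -1.23 and -1.05.

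Klf2 read 4871, 4938 and 4070.4 in the knockout and 5576, 6689 and 5787 in the control. No knockout array reached the lowest control array, but the log2 difference of -0.38 ± 0.11 was not called (limma, adjusted p = 0.0933). Within each array, Klf2 minus Klf4 was 2.20, 2.34 and 2.29 on the log2 scale in the knockout and 1.56, 1.52 and 1.44 in the control. The groups stood well apart, with a difference of 0.77 and the smallest exact permutation p possible, 0.1 (0.16 adjusted over 8 pairs). With the level of the spike-in controls as a covariate, Klf2 gave -0.66 and was called (limma, adjusted p = 0.0174). That level was 10.69, 10.80 and 10.54 on the log2 scale on knockout arrays 1 to 3. On control arrays 1 to 3 it was 10.34, 10.57 and 10.38. The covariate is thus partly tied to the group, and this fit cannot separate the 2.

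**Figure D3:**
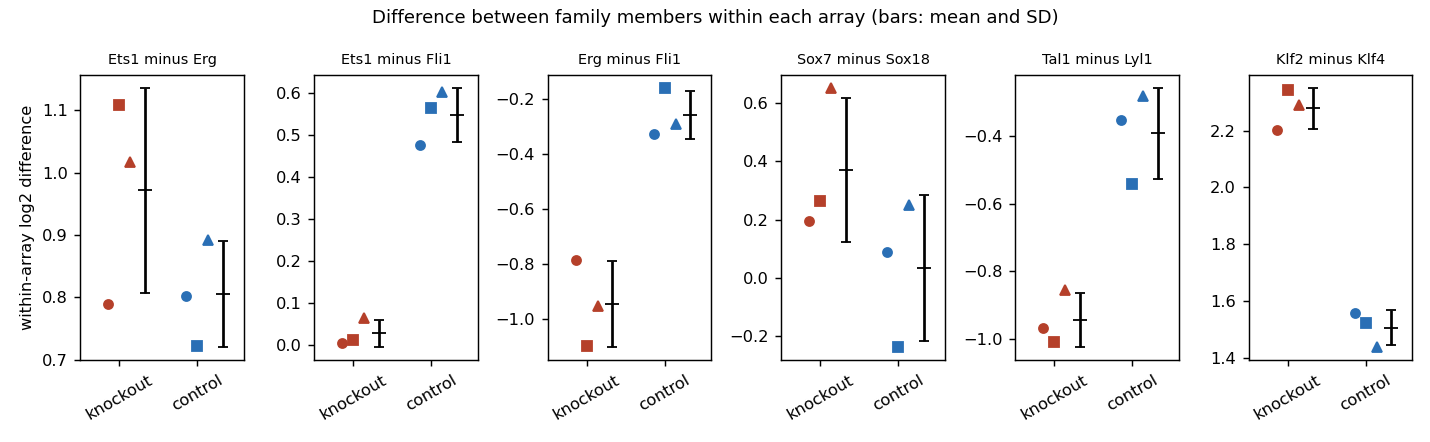
Log2 signal of the gene named first minus that of the gene named second within each array, for the 6 family pairs in which both genes were measured, knockout left and control right; bars are mean and SD of 3 arrays and each panel has its own axis, which does not start at 0. The groups do not overlap for Ets1 minus Fli1, Erg minus Fli1, Tal1 minus Lyl1 and Klf2 minus Klf4. After adjustment 0 of 8 pairs passed, and with so few arrays none could.

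**Figure D4:**
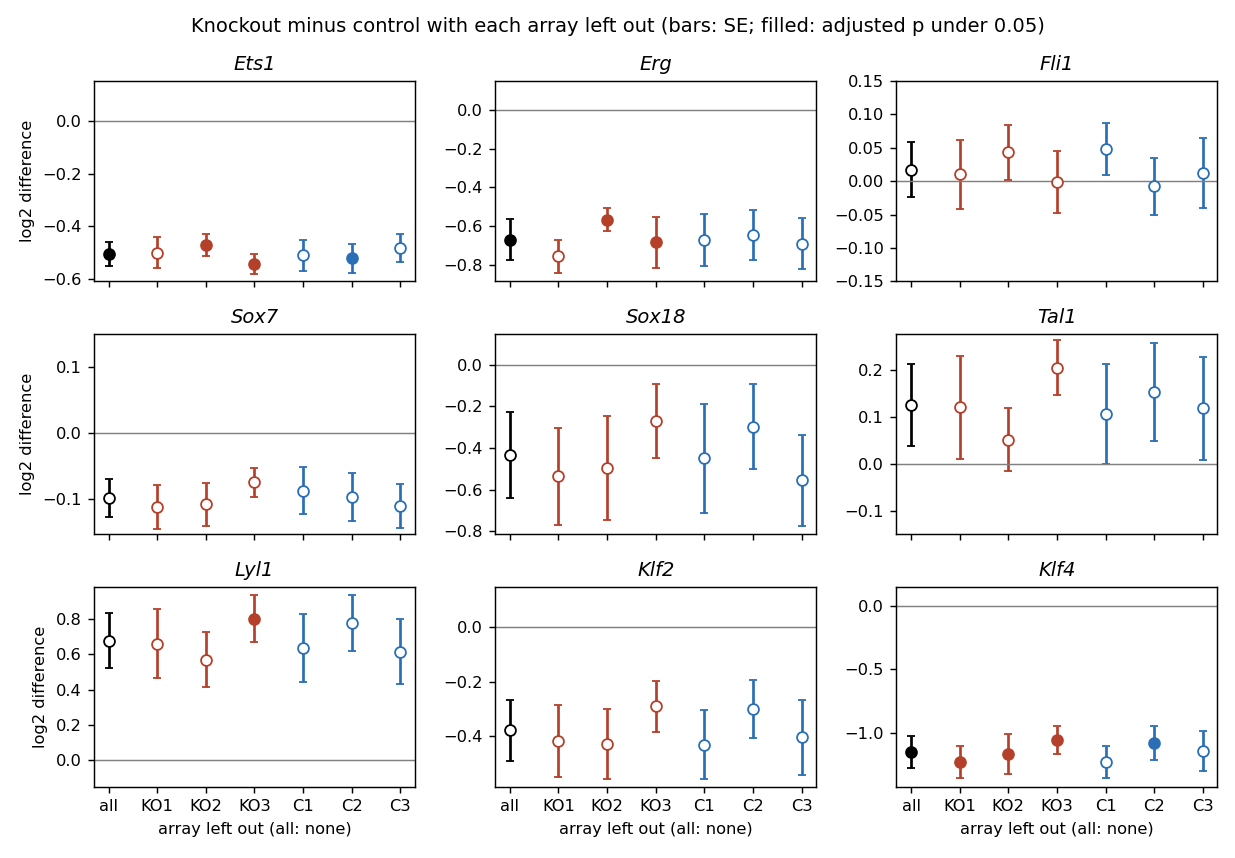
Log2 difference, knockout minus control, of the 9 measured genes with all arrays and with each array left out in turn (KO knockout, C control); bars are SE, filled points have an adjusted p under 0.05, and each panel has its own axis. Ets1, Erg and Klf4 stay below 0 throughout, and their points are open without control 1 and without control 3.

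Of 9 other KLF factors tested, Klf10 alone was called, as lower, and Klf12 was below 16 on every array. Klf10, an early response gene of TGF-β, was 19919.7 ± 620.4 in the knockout and 23599.9 ± 558 in the control, a log2 difference of -0.24 ± 0.03 (limma, adjusted p = 0.0191). Its call remained in 1 of 6 fits with an array left out, without knockout 3. Klf9 (-0.73 ± 0.17), Klf3 (-0.75 ± 0.21) and Klf16 (0.62 ± 0.19) did not overlap between groups and were not called. Klf1, Klf5, Klf14, Klf15 and Klf17 were at the floor.

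Upstream of Klf2 and Klf4, 1 of 16 genes of the flow cascade and of the cavernous malformation complex that restrains it was called. Heg1, the membrane protein that anchors that complex, read 25.8, 19.7 and 29.9 in the knockout and 81.9, 49.3 and 79.2 in the control. Both groups were dim but above 16, and the log2 difference of -1.05 ± 0.20 was called (limma, adjusted p = 0.0383), though not without knockout 1, knockout 2, control 1 or control 3, and it was -0.56 with the spike-in covariate (0.0671). The MEF2 genes were not called. Mef2d stayed between -0.27 and 0.0045 with single arrays left out, while Mef2c and Mef2a spread widely among arrays. Mef2c read 673, 567 and 1548 in the knockout and 3088, 2099 and 2793 in the control (-1.63 ± 0.43, limma adjusted p = 0.0765). Mef2a read 1834, 1234 and 3308 in the knockout and 5447, 4182 and 6085 in the control (-1.40 ± 0.41, adjusted p = 0.0916). For both, knockout 3 was the highest knockout array and control 2 the lowest control array. Map2k5, the kinase MEK5, gave 0.60 ± 0.16 without overlap and was not called (adjusted p = 0.0767).

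Of 6 measured genes known to be induced by Klf2 and Klf4, 4 were called lower and 0 higher, with a median log2 difference of -0.72. Of all genes, 5.07% were called lower. The list was chosen with earlier results of these data known, so nothing is read from its count. Adamts4, a proteoglycan-cleaving protease, read 12377, 13994 and 13145 in the knockout and 24491, 24592 and 25463 in the control. Its log2 difference of -0.92 ± 0.05 (limma, adjusted p = 0.00328) stayed called with each array left out. Its relative Adamts5 read 1669.8, 1377 and 2508 in the knockout and 7005, 6265 and 6551 in the control, a log2 difference of -1.87 ± 0.24 (adjusted p = 0.0169). Nos3, the endothelial nitric oxide synthase, and Tek, the angiopoietin receptor, gave -0.53 ± 0.05 and -1.24 ± 0.15 (adjusted p 0.0115 and 0.0161). These 3 lost their calls with some array left out: Adamts5 without knockout 1 or any of the 3 controls, Nos3 and Tek without knockout 1, control 1 or control 3. S1pr1 and Thbd, the other genes measured, were not called. With single arrays left out, S1pr1 stayed between -0.34 and -0.24, and Thbd between -0.04 and 0.02. Nppc and Aqp1, also known to be induced, lay at the floor and were not tested.

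Of 5 tested genes known to be repressed by Klf2 and Klf4, F3 was at the floor on every array, and of the other 4, 2 were called, both higher. Of all genes, 8.65% were called higher. This list too was chosen with results known, and nothing is read from its count. Edn1, the vasoconstrictor endothelin, read 2118, 1514 and 1016 in the knockout and 285, 308 and 287 in the control, a log2 difference of 2.28 ± 0.28 (limma, adjusted p = 0.0161). Vcam1, which captures leukocytes, read 1826, 1313 and 1194 in the knockout and 521, 563 and 600.1 in the control, a difference of 1.32 ± 0.18 (adjusted p = 0.0191). The knockout arrays spread widely for Edn1, yet the lowest was well above the highest control. Sele (-0.24 ± 0.09), the endothelial selectin, and Ccl2 (-0.13 ± 0.09), a chemokine that attracts monocytes, were not called. The Edn1 call ended without knockout 2, control 1 or control 3, and that of Vcam1 without knockout 2 or any control; with the spike-in covariate 0 of the 5 were called.

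Of 17 genes known as endothelial ETS targets, 6 were called lower and 0 higher, with a median log2 difference of -0.23. A negative difference was found for 15 of them, and for 4663 of all 12277 genes tested. Besides Tek, Nos3 and Dll4, Flt1, a VEGF receptor, read 4039.6, 4077 and 4431 in the knockout and 6574, 7394 and 6758 in the control. Its log2 difference was -0.72 ± 0.06 (limma, adjusted p = 0.00825) and its call ended without control 3 alone (0.053). With the probe sets of a gene averaged, Flt1 was -1.61 (limma, adjusted p = 0.00212). The other 2 called, named after their values were seen, were the orphan receptor Tie1 and the junction protein Pecam1, at -0.65 ± 0.13 and -0.34 ± 0.07 (adjusted p 0.0407 and 0.0413); each lost its call with any 1 array left out. Cdh5 (-0.42 ± 0.13, limma, adjusted p = 0.114) was lower without overlap and not called. Egfl7 (-0.09), Icam2 (-0.08), Eng (-0.07) and Esam (-0.02) overlapped between groups. Robo4 (0.28) and Angpt2 (0.16) were higher without overlap and not called. Leaving out single arrays gave 0 to 4 lower calls in this list, 0 of them without control 3. Tek, Tie1 and Pecam1 also stand among the endothelial markers, whose sum was lower in the knockout, and the part of that in the ETS target values was not tested. The lists share genes: over all 10 related lists, 102 different genes were tested, of which 3 were called higher and 14 lower. That is 16.7% called, near the 13.7% of all genes, with 13.7% called lower against 5.07% of all genes; since the lists were chosen with results known, nothing is read from it.

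**Figure D5:**
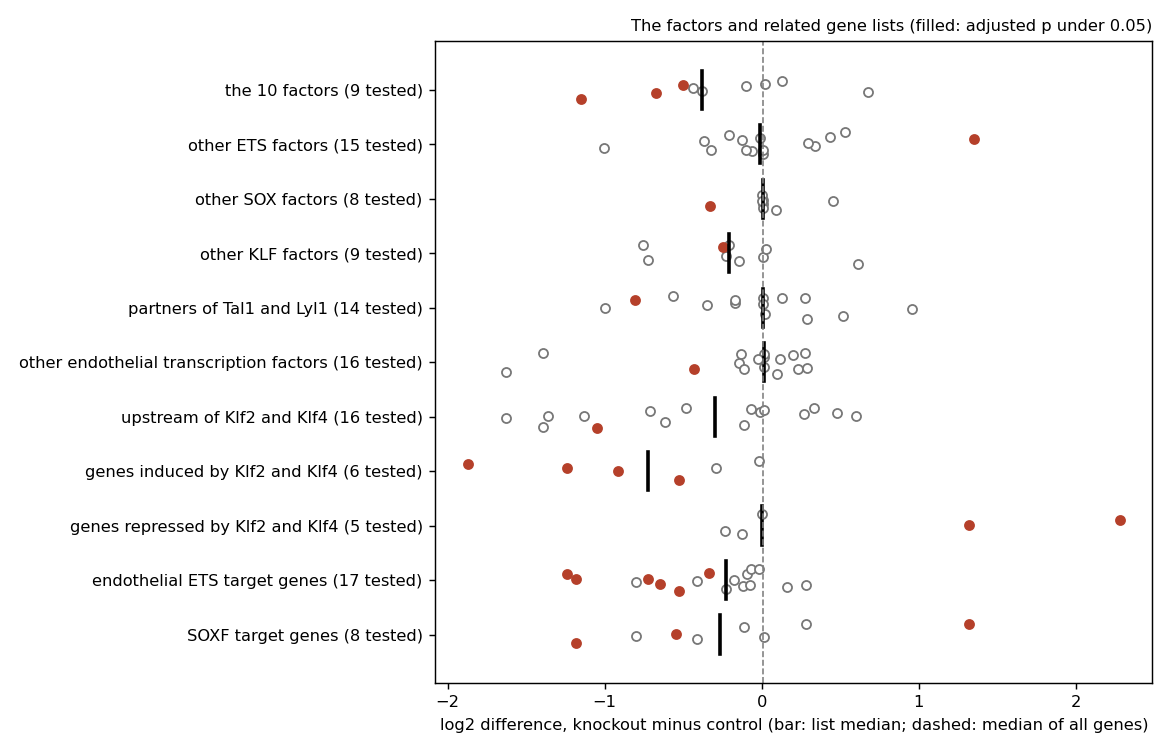
Log2 difference, knockout minus control, of every tested gene of the 10 factors and of 10 related lists; filled points have an adjusted p under 0.05, black bars are list medians and the dashed line is the median of all 12277 genes. The called points lie to the left in the lists of genes induced by Klf2 and Klf4 and of ETS targets, and the points for Edn1 and Vcam1 lie far to the right.

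The genes whose pattern over the 6 arrays was most like each called factor were taken by Pearson's r on the log2 scale, as a description; all 6 points share the 2 groups. For Ets1 these were Hadhb (r = 0.9993), Fat4 (0.998) and Wdfy2 (0.9978), with log2 differences of -0.20, -1.40 and -1.11. For Erg they were Ms4a6d (0.9969), Gimap9 (0.9942) and Chd7 (0.994), and for Klf4 Rnf125 (0.998), Mxd1 (0.9974) and Serf1 (0.9969). Mxd1, a MAX-binding repressor, averaged 484 in the knockout and 1599 in the control, and Fat4, an atypical cadherin, 241 in the knockout and 659 in the control. None of these 9 genes is on a related list.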

How the data were processed

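RNA of 3 knockout and 3 control samples was amplified and biotin-labelled, with 1 array each, per the labels' protocols. The authors deposited linear intensities, 1 for each probe set on each array. MAS5 and GCRMA were used upstream, per the submitters' processing notes, which give neither version nor role. Array quantiles were nearly equal, so the deposited intensities were not normalized further; such background correction pulls dim probe sets to nearly 1 value. Arrays have no read depth; their number limits the precision.

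Probe sets were named from the platform annotation: 34945 had 1 gene, 932 several and 9224 were not listed. After leaving out 64 controls and the dimmest 40% of probe sets by mean, log2(intensity + 16) was compared by limma 3.58.1 (R 4.3.3; two-sided, eBayes after lmFit), 1 probe set a gene, with Benjamini-Hochberg adjustment over all 12277 genes. The code was tested on simulated data. Within-array differences of family members were compared by exact permutation over arrays. A log2 difference on this scale understates the change of dim genes. Genes named were the 10 factors, Epas1, up to 4 genes of smallest p per list, the 2 brightest markers per list and the 3 genes most like each called factor; further genes were named after their values were seen. The members, lists and alternatives were chosen with earlier results of these data known. The alternatives were other pseudocounts, filters, scalings, eBayes settings, array weights, means of probe sets, a replicate block, a spike-in covariate, merging or leaving out arrays. Promoters were searched for motifs in a RefSeq table of GRCm38.p6. Figures were drawn with matplotlib 3.10.9.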

Additional observations from a re-analysis of the deposited data

How the results depend on the processing

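Against 3 factors, 1685 genes and 17 list genes called in the fit as reported, leaving out 1 array gave 0 to 4 factors, 206 to 3003 genes and 1 to 30 list genes; the lowest counts came without control 1 or control 3 and the highest without knockout 3. Controls 1 and 3 averaged gave 0 factors, 193 genes and 2 list genes (limma). At an unadjusted p under 0.05 that fit had 6 factors, and all genes at that level were not counted. Without control 2 and knockout 3 the counts were 4 factors, 4632 genes and 41 list genes. Array weights, whose estimation stopped before converging, gave 7 factors, 8533 genes and 73 list genes. No filter gave 893 genes and 10 list genes, and means of probe sets gave 1 factor. The replicate block gave 4 factors, Lyl1 added (adjusted p = 0.0215), 2995 genes and 26 list genes. Whether the numbers pair the arrays is not known. Same-numbered deviations from the group means correlated at -0.464, 0.844 and 0.804, and knockout 1 correlated best with control 2 (0.501). Deviations from a mean of 3 arrays are tied to each other, so these values cannot settle it. With the spike-in covariate, 40.4% of 1328 called genes were higher, against 63.0% in the fit as reported, and of the 3 factors Erg lost its call (-0.60, adjusted p = 0.116). The spike-in level tended to be higher on the knockout arrays, so this covariate is partly tied to the group. Ets1, Erg and Klf4 stayed negative in all 20 alternatives of the fit and were called in 15, 12 and 17 of them; Lyl1 stayed positive and was called in 7. The sign turned for Fli1, which ran from -0.0080 to 0.048 with 1 array left out, with array weights (-0.0091), without knockout 3 (-0.0011), without control 2 and without both (-0.026), for Tal1 with the spike-in covariate (-0.075) and for the floor probe set of Sox7 (0.0029). Of the 8 family pairs 0 passed with any array left out, nor could they with so few arrays. The cause of these shifts was not tested.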
